A study of Mus musculus with 12 samples.

Results

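The comparison set trigeminal ganglia of mice that received electrical stimulation after a corneal wound against ganglia of untreated mice, with 3 libraries on each side of the 12 in the series. All animals were female C57BL/6J mice of 8 weeks. The untreated controls had neither wound nor current. In the stimulated injured group, a 1.5 mm central area of 1 eye, chosen at random, lost its epithelium and anterior stroma, and the ganglia were taken 2 weeks later. Stimulation was a biphasic ramp waveform of 300 µA at 20 Hz, given through a cathode on the skin over the orbit for 4 min a day over 14 days. Each session used isoflurane, and wounded mice received ketamine, xylazine and the analgesic Ethiqa XR, so wound, current and these drugs cannot be told apart here. Sham electrodes are described by the submitters but no library is labelled as sham. Diabetic neuropathy and a KCNN-dependent mechanism appear in the title of the series, but these mice are not labelled as diabetic. Neither the number of mice nor the side behind a library is given, so the p-values reflect only how these libraries vary, which may be technical.

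The trigeminal ganglion holds the cell bodies of the sensory neurons that innervate the face and cornea, each wrapped by satellite glia, with axons ensheathed by Schwann cells. Immediate early genes are transcribed within minutes of depolarisation, growth factor signalling or stress, without new protein synthesis, and many encode transcription factors of the AP-1, Krüppel-like and NR4A families. Calcium and cyclic AMP signals reach several of them through the factor CREB, which binds the cyclic AMP response element in their promoters.

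Poly(A)-selected RNA was sequenced as paired 150 bp reads, and between 8396501 and 8930766 reads were counted in each of the 6 libraries. Counts were deposited for 56941 intervals of the GRCm39 annotation, of which 36.1% lay over an exon of the GRCm38 annotation and held 98.9% to 99.4% of the counts of each library. Genes are therefore named by GRCm38 position, and a gene is seen only through those of its exonic bases that 1 interval covers. Of 9969 genes named, 4771 were tested. Levels are CPM, counts scaled to a library total of 1000000, and each adjusted p comes from edgeR's quasi-likelihood test with Benjamini-Hochberg adjustment over all 13053 intervals tested, with a call at 0.05. Differences are log2 fold changes ± standard error, positive where the stimulated injured group was higher. In bulk tissue, fewer cells of a type and less RNA per cell cannot be told apart.

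Replicate 2 of the stimulated injured group stood apart from the other libraries of its group. Its log2 levels correlated with the 3 controls at Pearson r of 0.969, 0.969 and 0.963, across intervals, against 0.935 and 0.959 with replicates 1 and 3 of its own group. Replicates 1 and 3 correlated with each other at 0.962, and the controls among themselves at 0.966 to 0.974. On the first principal component of all 12 libraries, which held 33.9% of the variance, the controls lay between -54.7 and -47.0, replicate 2 at -32.5, and replicates 1 and 3 at 57.4 and 20.7. The main counts, and the fold changes of most genes with levels by library, are therefore given with all libraries and without replicate 2. Of the genes named below as called, mt-Co2 and Alas2 lost the call without it.

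Against untreated control, 551 named genes were higher and 286 lower, which is 11.5% and 5.99% of those tested. Over all intervals, 1604 were higher and 643 lower (17.2% called, 12.3% and 4.93% by direction). Without replicate 2, 822 named genes were higher and 804 lower (16.6% and 16.2% of 4958 tested, 32.8% together), and 2366 and 1983 intervals (31.6%). Of the 837 calls with all libraries, 827 were called in the same direction without replicate 2 (98.8% of the first list and 50.9% of the second). The added calls were mostly lower ones, so the share of interval calls that were higher went from 71.4% to 54.4%, and upper-quartile scaling, which moved the median of all intervals by -0.12, gave 52.5%. The 3 values of one group lay wholly above or below the 3 of the other in 1601 named genes (33.6%), with the stimulated injured group higher in 793 (16.6%) and lower in 808 (16.9%). Among called genes this held for 487 of the 551 higher (88.4%) and 275 of the 286 lower (96.2%). For a called gene, groups that do not overlap therefore add little to the call. The median log2 fold change over all tested named genes was -0.03. Each list count below is to be read against 11.5% higher and 5.99% lower, or 16.6% and 16.2% without replicate 2.

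The size of the shift differed among the 3 stimulated injured libraries. Over the 551 genes called higher, the median log2 difference from the control mean was 1.05 in replicate 1, 0.36 in replicate 2 and 0.85 in replicate 3. Over the 286 genes called lower, it was -1.09, -0.51 and -0.92. In these genes, which were called with replicate 2 in the fit, replicate 2 lay on the same side as the others by a smaller distance. It was within the control range for 61 higher genes (11.1%) and 9 lower genes (3.15%). Over the 822 higher and 804 lower genes called without it, its median differences were 0.28 and -0.27. There it lay within the control range for 213 higher genes (25.9%) and 248 lower genes (30.8%).

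Other single libraries also decided how many genes were called. Without replicate 3 of the stimulated group, which leaves replicates 1 and 2, 5 named genes were higher and 1 lower, although 3309 intervals had an unadjusted p under 0.05 against 4138 with all libraries. Without its replicate 1, the counts were 292 higher and 82 lower. Leaving out control 1 gave 296 and 98, control 3 gave 284 and 89, and control 2 gave 418 and 171. Only 6 named genes were called in all 12 fits that leave out 1 library. These were Btg2, Fos, Ier2, Junb and Klf4, all higher, and Zfp292, lower; Klf4 and Zfp292 are named because of this count. They, and the genes called outside the rule below, were chosen after their values were seen. Every other call below was lost without replicate 3 of the stimulated group.

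**Figure D1:**
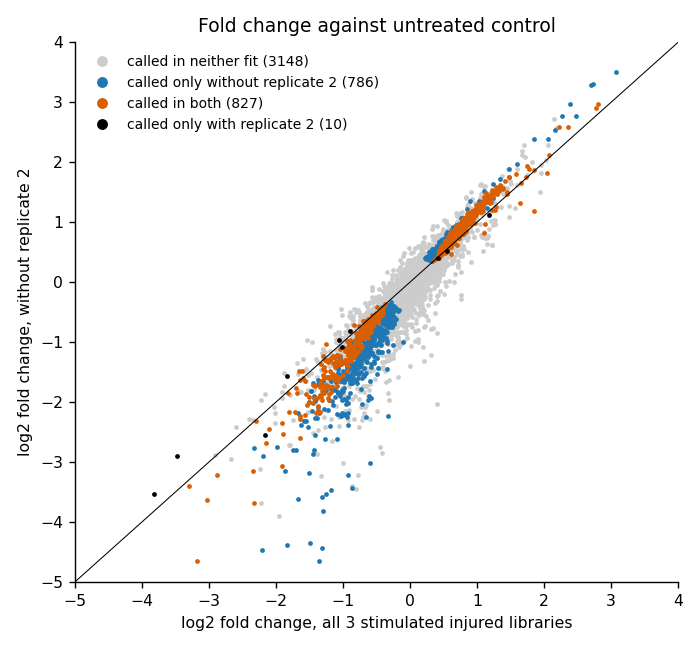
Log2 fold change of each of 4771 named genes against untreated control, with all 3 stimulated injured libraries (horizontal) and without replicate 2 (vertical); the line marks equal values and 14 genes lie outside the axes. The 786 genes called only without replicate 2 lie mostly farther from 0 on the vertical axis than on the horizontal one, and 10 genes were called only with it.

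Immediate early genes had the largest share called higher of the lists with at least 5 tested members. The lists were chosen with earlier results of these data known, so this rank is only a description. Of 31 immediate early genes on the list, 11 could be tested. Of these, 7 rose and none fell, against 11.5% and 5.99% of all tested named genes, with a median log2 fold change of 1.44. All 7 were also called without replicate 2 (median 1.18). The cyclic AMP response element, TGACGTCA, and its shorter core, TGACG, were searched on both strands in the 250 bases before the start of each gene, since the promoters of these genes are where the signals named above meet. Of the 7 genes that rose, 6 have a promoter in the RefSeq sequences on GRCm38.p6, all but Ier2. The stretches with the element are shown because all 6 hold the core element; capitals mark matches on either strand.

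Junb, chr8:84978840-84978864, minus strand: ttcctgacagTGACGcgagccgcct
Fos, chr12:85473751-85473838, plus strand: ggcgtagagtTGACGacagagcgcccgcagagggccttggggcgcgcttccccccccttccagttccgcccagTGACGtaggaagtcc
Dusp1, chr17:26508598-26508673, minus strand: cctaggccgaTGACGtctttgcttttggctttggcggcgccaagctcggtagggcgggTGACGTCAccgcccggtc
Btg2, chr1:134079304-134079331, minus strand: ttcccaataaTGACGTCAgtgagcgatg
Klf4, chr4:55532693-55532717, minus strand: gcctggctggCGTCAcggcctggcc
Nr4a1, chr15:101266767-101266820, plus strand: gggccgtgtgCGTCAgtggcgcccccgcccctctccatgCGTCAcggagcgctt

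The whole element occurred in Dusp1 at bases -143 to -136 and in Btg2 at -166 to -159, counted from the annotated start, where each whole element also counts as overlapping core elements. For Nr4a1 the pair of matches nearest the start is shown, of 4 in its window. The core element was in 26.1% of 3567 promoters of tested genes and in 19.6% of 20595 promoters in all. Among genes called higher it was in 31.3% of 434, and among those called lower in 25.2% of 210. The whole element was in 2.72% of tested genes. Nr4a3, which did not pass the test, held 4 core elements. The AP-1 site TGANTCA, the CArG box and the TATA box TATAAA were searched in the same windows. Of the 6 genes, none held the first or the CArG box and 1, Fos, held TATAAA (nearer the start than the stretch shown), against 4.15%, 1.29% and 6.22% of the tested promoters and 6.44%, 1.34% and 12.2% of all promoters. No match says only that these letters are not in the window. A match describes these letters and is no sign that the element was bound.

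Junb, on chr8:84974484-84978718, encodes a subunit of the AP-1 transcription factor. Its level was 44.3, 41 and 30.9 CPM in the 3 controls and 165, 122 and 101 CPM in stimulated injured replicates 1 to 3 (log2 fold change 1.74 ± 0.20, adjusted p = 0.0016). All 3 stimulated libraries lay above all controls, and without replicate 2 the fold change was 1.76. Fos, on chr12:85473890-85477273, encodes its partner in AP-1. The controls had 6.52, 5.90 and 7.59 CPM and the stimulated libraries 28.8, 35 and 18.7 (log2 fold change 2.04 ± 0.28, adjusted p = 0.0036; 1.81 without replicate 2). Replicate 2, which by the medians above lay nearer to the controls, was the highest library for Fos.

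Ier2, on chr8:84661331-84662852, encodes a small nuclear protein. It went from 10.3, 10.7 and 7.35 CPM to 38.2, 32.6 and 31.4 (log2 fold change 1.85 ± 0.23, adjusted p = 0.0029; 1.86 without replicate 2). The 3 stimulated libraries differed little among themselves and all lay above the controls. Dusp1, a phosphatase that switches off MAP kinases, stood at 11.8, 19.4 and 23.9 CPM in controls and 58.5, 46.4 and 44.5 with stimulation after injury (log2 fold change 1.44 ± 0.23, adjusted p = 0.0046; 1.47 without replicate 2). The lowest stimulated library was still above the highest control. Btg2, an antiproliferative cofactor of mRNA deadenylation, had 5.86, 7.60 and 8.29 CPM against 23.1, 30.7 and 13.7 (log2 fold change 1.63 ± 0.29, adjusted p = 0.0046; 1.32 without replicate 2).

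Klf4, a zinc finger transcription factor, had 24.3, 26.9 and 17 CPM in controls and 49.8, 64.4 and 31.4 in stimulated injured ganglia (log2 fold change 1.09 ± 0.23, adjusted p = 0.0064; 0.82 without replicate 2). Nr4a1, an orphan nuclear receptor, had 2.76, 3.63 and 4.79 against 8.72, 22.9 and 8.48 CPM (log2 fold change 1.84 ± 0.42, adjusted p = 0.0078). Replicate 2 was the highest library for Btg2, Klf4 and Nr4a1 as well, and without it Nr4a1 stood at 1.18 (adjusted p = 0.02). The other 4 members, outside the rule, gave log2 fold changes of 0.55 for Arc, a synaptic cytoskeletal protein, 0.48 for Ier5, -0.11 for Klf10 and -0.30 for Nr4a3, with adjusted p from 0.28 to 0.67.

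**Figure D2:**
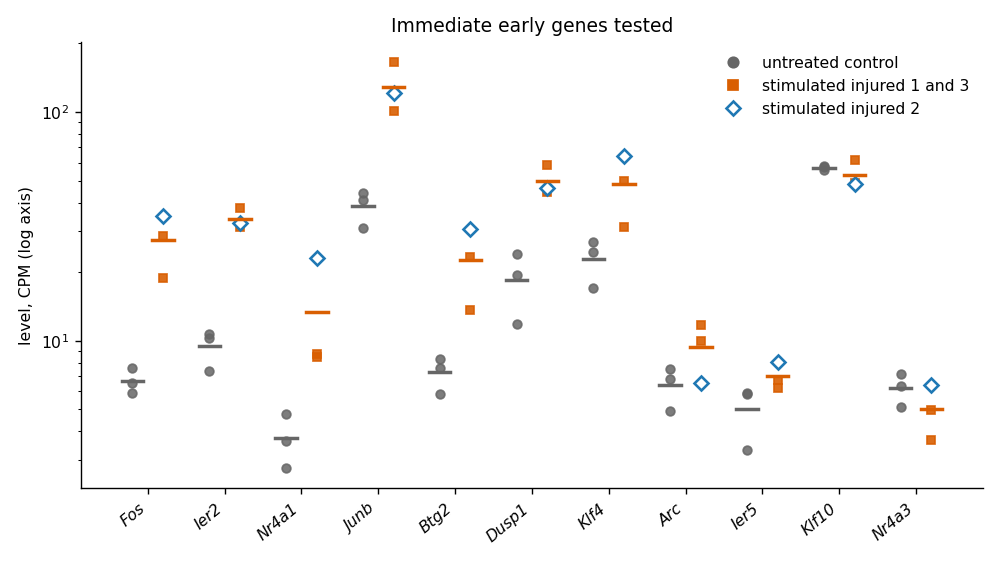
Level in CPM (log axis) of the 11 immediate early genes tested, in order of fold change; each point is 1 library and bars are group means. For the first 7 genes, and for Ier5, which was not called, all stimulated injured libraries lie above all controls. Replicate 2 (open diamonds) is the highest for Fos, Nr4a1, Btg2, Klf4 and Ier5.

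The levels of the 7 called genes in the other 2 groups can be set beside these values, though the 7 were called by their level with both injury and current. Fos had 17.5 ± 4.02 CPM after injury without current and 7.77 ± 2.13 with current and no injury (SD, n = 3), against 6.67 ± 0.856 in controls and 27.5 ± 8.23 with both. Junb stood at 95.6 ± 21 after injury alone and 70.1 ± 2.47 with current alone, against 38.8 ± 6.97 in controls and 129 ± 33.1 with both. Dusp1 had 57.6 ± 12 after injury alone, 22.6 ± 3.87 with current alone, 18.4 ± 6.12 in controls and 49.8 ± 7.60 with both. Klf4 had 51.5 ± 7.39 after injury alone, 24.3 ± 3.27 with current alone, 22.7 ± 5.10 in controls and 48.5 ± 16.5 with both. Ier2 had 21.9 ± 4.22 after injury alone, 16.9 ± 5.07 with current alone, 9.43 ± 1.81 in controls and 34.1 ± 3.59 with both. Btg2 had 14.8 ± 3.89, 10.2 ± 1.02, 7.25 ± 1.25 and 22.5 ± 8.52 CPM in the same order, and Nr4a1 6.98 ± 2.81, 2.37 ± 0.485, 3.73 ± 1.02 and 13.4 ± 8.24. The injured libraries without current lay above all controls for each of these genes but Nr4a1, whose lowest such library, at 3.74 CPM, was under the highest control, at 4.79. With current alone, all 3 libraries lay above all controls for Junb, Ier2 and Btg2, and below all of them for Nr4a1. The share of all genes that lay wholly above or below the controls in these 2 groups was not computed. These counts can therefore not be read against it. These comparisons share the control libraries. By group mean, none of the 4 members not called was highest with both. In the order injury alone, current alone, controls and both, Arc had 19.0 ± 3.65, 15.4 ± 7.51, 6.41 ± 1.35 and 9.38 ± 2.62 CPM. Ier5 had 7.99 ± 2.56, 9.80 ± 0.361, 5.02 ± 1.47 and 6.97 ± 0.938. Klf10 had means of 50.6, 49.7, 57.0 and 52.9 CPM, and Nr4a3 of 5.32, 5.52, 6.19 and 5.01.

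KCNN channels open to calcium and let potassium out, and of the 4 genes that encode them, Kcnn3 and Kcnn4 had a usable interval. Kcnn4, the intermediate-conductance channel, lies on chr7:24370263-24386690 and was measured over 337 exonic bases at chr7:24383731-24384067, 59 of them coding. These coding bases, on the plus strand, are shown from the GENCODE M21 transcripts because the value rests on so short a part of the protein-coding sequence. The other bases are exonic but not coding in that annotation, so which transcripts of the gene the counts came from is not known. No start codon is marked in the bases printed.

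Kcnn4, chr7:24384009-24384067: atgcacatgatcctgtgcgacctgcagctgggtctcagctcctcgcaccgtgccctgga

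Kcnn4 had 3.87, 4.65 and 4.20 CPM in controls and 13.8, 5.77 and 10.2 in stimulated injured ganglia (log2 fold change 1.22 ± 0.32, adjusted p = 0.016). Replicates 1 and 3 lay well above the controls and replicate 2 just above them, and without replicate 2 the fold change was 1.48 (adjusted p = 0.00082). The call was lost without control 1 (adjusted p = 0.070), control 3 (0.062), or stimulated replicate 1 (0.097) or 3 (0.077). After injury alone Kcnn4 stood at 7.28 ± 0.795 CPM and with current alone at 8.63 ± 2.40. Kcnn3, a small-conductance channel, had 1.66, 2.38 and 0.350 CPM against 0.253, 0.855 and 1.41 (log2 fold change -0.78 ± 0.92, adjusted p = 0.61; -0.81 without replicate 2), with overlapping groups.

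Among 13 other potassium and HCN channel genes tested, 3 rose and none fell (median 0.09; 4 and 2 without replicate 2). Kcnab2, a cytoplasmic beta subunit of voltage-gated potassium channels, went from 925, 1020.0 and 827 CPM to 2347, 1296 and 2112 (log2 fold change 1.05 ± 0.20, adjusted p = 0.0048; 1.25 without replicate 2). Kcnc1, the fast-repolarising channel Kv3.1, had 43.7, 37 and 37.2 against 88.8, 50.9 and 80.4 CPM (log2 fold change 0.90 ± 0.23, adjusted p = 0.014; 1.09 without replicate 2), a call also lost without control 2 or 3 or stimulated replicate 1. Hcn2, a pacemaker channel, stood at 0.48 (adjusted p = 0.047) and at -0.18 after removal of a trend with GC content and length, so its direction depended on that step. Every stimulated library lay above every control for Kcnab2 and Kcnc1.

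Of 13 sodium and calcium channel genes, Scn8a and Cacna2d3 rose and none fell (3 and 2 without replicate 2). These counts are near the shares over all tested named genes, 11.5% and 5.99% with all libraries. Scn8a, the sodium channel of nodes of Ranvier, had 233, 226 and 220.1 CPM in controls and 378, 296 and 363 in stimulated injured ganglia (log2 fold change 0.61 ± 0.13, adjusted p = 0.007; 0.69 without replicate 2). Cacna2d3, an auxiliary calcium channel subunit, had 12.5, 12.2 and 11.7 against 17.4, 19.8 and 26.1 CPM (log2 fold change 0.80 ± 0.19, adjusted p = 0.011; 0.82 without replicate 2), a call lost without control 3. Scn11a, a nociceptor sodium channel, had 435, 538 and 317 against 787, 446 and 688 CPM, with replicate 2 inside the control range; it did not pass with all libraries (adjusted p = 0.063) and passed without replicate 2 (0.76, adjusted p = 0.0011).

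Among 7 TRP, Piezo and acid-sensing channel genes, 2 rose and 1 fell, the same counts as without replicate 2. Asic1, an acid-sensing sodium channel of sensory neurons, went from 15.9, 17.6 and 20.1 CPM to 64.7, 28.1 and 57 (log2 fold change 1.48 ± 0.25, adjusted p = 0.0046; 1.75 without replicate 2). Trpm4, a calcium-activated cation channel, had 16.4, 16.2 and 12.3 against 33.7, 20.1 and 31.2 CPM (log2 fold change 0.92 ± 0.20, adjusted p = 0.0073; 1.10 without replicate 2). Trpc6 fell, from 66.1, 82.1 and 70.4 to 49.9, 43.9 and 42.6 CPM (log2 fold change -0.68 ± 0.15, adjusted p = 0.0072; -0.67 without replicate 2). In each of these 3 genes the groups did not overlap. Of 11 transmitter receptor genes, none rose and 1 fell (median -0.18; 1 and 3, median -0.32, without replicate 2). This was Gria3, an AMPA glutamate receptor subunit, with 56.1, 52.5 and 48.8 CPM in controls and 27.8, 32.9 and 32 in the stimulated group (log2 fold change -0.76 ± 0.18, adjusted p = 0.0086; -0.83 without replicate 2). Ano3, of the anoctamin family, fell by 0.97 (adjusted p = 0.015) and was 1 of 2 tested, outside the rule, of the list of BK and calcium-activated chloride channels.

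Most of the sensory neuron identity genes tested were higher. Of 7 sensory neuron identity genes tested, 4 rose and 1 fell (median 0.58; the same counts without replicate 2). Thy1, a surface glycoprotein of neurons, had 863, 882 and 864 CPM in controls and 2601, 1158 and 2194 in stimulated injured replicates 1 to 3 (log2 fold change 1.19 ± 0.23, adjusted p = 0.0049; 1.44 without replicate 2). Uchl1, the neuronal ubiquitin hydrolase, had 1904, 2187 and 1773 against 5516, 2349 and 4393 CPM (log2 fold change 1.06 ± 0.24, adjusted p = 0.0083; 1.32 without replicate 2). In both, replicates 1 and 3 were far above the controls and replicate 2 was between them and the highest control.

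Avil, the sensory neuron actin-binding protein advillin, had 742, 851 and 707 against 1151, 1021 and 1317 CPM (log2 fold change 0.60 ± 0.15, adjusted p = 0.011; 0.67 without replicate 2), a call lost without control 1 or 3. Nefm, the medium neurofilament, had 725, 719.8 and 711 against 946, 986 and 1296 (log2 fold change 0.58 ± 0.17, adjusted p = 0.025; 0.62 without replicate 2), lost without any single control or without replicate 1 of the group with current alone. Slc17a6, the vesicular glutamate transporter VGLUT2, went the other way, from 65.3, 62.1 and 79 to 21, 53 and 25.6 CPM (log2 fold change -1.05 ± 0.27, adjusted p = 0.015; -1.58 without replicate 2). Its call was lost without control 3 or stimulated replicate 1. All 3 stimulated libraries lay on one side of all controls for these genes. Once the GC and length trend was taken out, 1 of the 7, Thy1, was called higher and none lower.

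Summed levels of the markers of each cell type differed between the groups in several cases. The 5 sensory neuron markers that could be measured, of 11, summed to 4134 to 4702 CPM in controls and 5566 to 10235 in stimulated injured libraries, of which 5566 was replicate 2. Isl1, Pou4f1, Prph, Nefl, Nefh and Tubb3 were not measured by position. The 3 satellite glia markers measured (Kcnj10, Cdh19 and Ptprz1) summed to 386 to 498 CPM in controls and 303 to 384 in the stimulated group. The nearest values were 386 in control 2 and 384 in replicate 2, and most of each sum was Ptprz1. The 3 myelinating Schwann markers measured (Mag, Prx and Mal) summed to 2548 to 3398 CPM in controls and 2595 to 5117 in the stimulated group. The 4 fibroblast markers summed to 3806 to 4885 and 3001 to 3335 CPM, and the 4 macrophage markers to 113 to 131 and 94.3 to 109. The 4 oligodendrocyte markers, of a cell type of the central nerve root, summed to 194 to 320 and 145 to 332 CPM. The 2 endothelial markers measured, Pecam1 and Tie1, summed to 8.75 to 15.6 and 15.2 to 21.5 CPM, the 3 astrocyte markers to 16.6 to 29.4 and 26.4 to 40.4, and the 4 meningeal fibroblast markers to 5113 to 5561 and 5093 to 6719. Alas2, the 1 red cell marker measured, had 19.3 to 37.6 CPM in controls and from 37.1 CPM upwards in the stimulated group, where replicate 2 had 61.7 and replicate 1 was higher. The 2 muscle markers measured, Ckm and Ttn, summed to 1.47 to 186 CPM in controls, the highest in control 3, and 1.53 to 18.8 in the stimulated group. Some members went against their sum, by log2 fold change: Slc17a6 (-1.05, sensory neuron), Kcnj10 (0.44, satellite glia), Col1a2 (0.08, fibroblast) and C1qc (0.25, macrophage). The other markers in those sums had fold changes in the direction of the sum. In the meningeal sum, Ptgds (0.23) and Slc6a13 (0.07) were positive, while Slc6a20a (-0.86, and -1.52 without replicate 2) and Foxc1 (-0.40) were negative. In the myelinating Schwann sum, Prx (0.54) and Mag (0.24) were positive and Mal (-0.22) negative. In the oligodendrocyte sum, Mog (-0.18), Cldn11 (-0.25) and Enpp6 (-0.40) were negative and Gpr37 stood at 0.01. No pituitary marker was measured, and the part of any shift in these sums in the gene results was not tested.

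Among 16 synaptic vesicle genes, 3 rose and none fell (median -0.15; 4 and 3 without replicate 2). Chga, chromogranin A of dense-core vesicles, had 51.3, 64.6 and 59.2 CPM against 134, 70.0 and 138 (log2 fold change 0.96 ± 0.22, adjusted p = 0.0082; 1.20 without replicate 2). Vgf, a secreted neuropeptide precursor also on the neurotrophic list, had 48.8, 56 and 32.3 against 119.9, 55 and 101 (log2 fold change 1.00 ± 0.25, adjusted p = 0.013; 1.25 without replicate 2), and replicate 2 lay inside the control range. Its call was lost without control 3 or stimulated replicate 1, and its fold change was 0.33 once the GC and length trend was taken out.

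Of 11 neurotrophic ligands and receptors, 3 rose and none fell (median -0.07; 4 and 2, median 0.11, without replicate 2). Cntfr, the ciliary neurotrophic factor receptor, went from 228, 222 and 204 CPM to 701, 339 and 552 (log2 fold change 1.28 ± 0.22, adjusted p = 0.0046; 1.50 without replicate 2). Ngfr, the low-affinity neurotrophin receptor p75, had 306, 353 and 258 against 567, 414 and 593 CPM (log2 fold change 0.78 ± 0.16, adjusted p = 0.0062; 0.91 without replicate 2), and 0.38 with the trend removed. All stimulated libraries were above all controls for both. None of the 6 axon injury response genes that could be tested passed, with a median of -0.19 (-0.37 without replicate 2). The list holds 30 genes, so most of it was not measured.

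Of 18 axonal cytoskeleton and motor genes, 3 rose and 3 fell (6 and 6 without replicate 2). Nefm, also on the sensory neuron identity list, was among those that rose. Klc1, a kinesin light chain, had 872, 1016 and 1005 CPM against 2428, 1260.1 and 2156 (log2 fold change 1.01 ± 0.21, adjusted p = 0.0053; 1.23 without replicate 2). Kif1b, a kinesin motor, fell from 43.3, 45.7 and 50.7 to 27.5, 32 and 24.4 CPM (log2 fold change -0.73 ± 0.17, adjusted p = 0.009; -0.86 without replicate 2). Sptbn1, a beta spectrin under the axonal membrane, fell from 22.1, 28.9 and 25.2 to 6.44, 18.4 and 4.95 (log2 fold change -1.34 ± 0.36, adjusted p = 0.018; -2.18 without replicate 2), with replicate 2 between the controls and the other stimulated libraries. Its call was lost without control 2 or 3 or stimulated replicate 1.

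**Figure D3:**
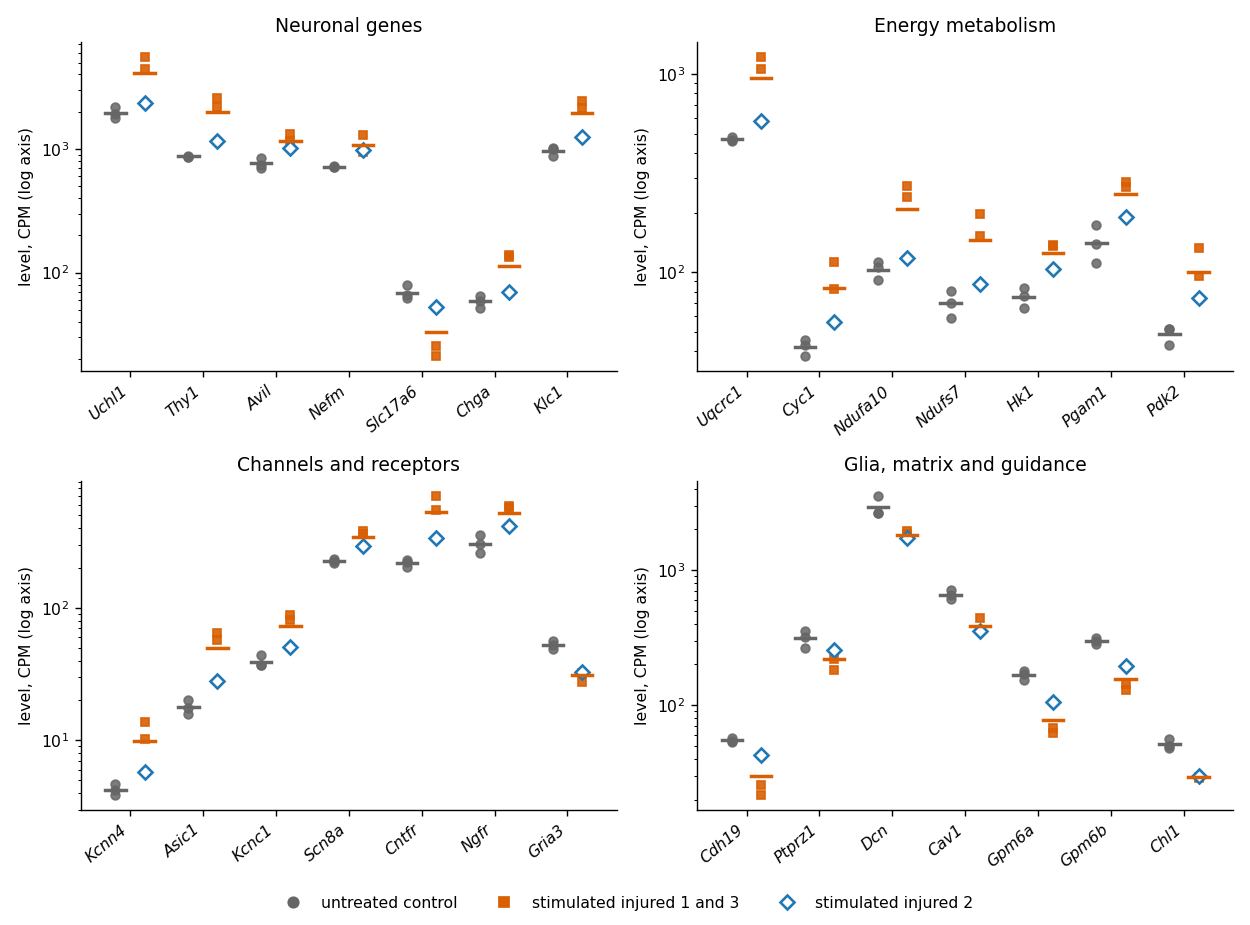
Level in CPM (log axis) of 28 genes named in the text, by library, with bars at group means. In the neuronal and energy panels replicate 2 (open diamonds) lies mostly between the controls and the other stimulated injured libraries, while for Dcn, Cav1, Chl1 and Gria3 it lies close to the other 2.

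Of 12 glycolysis and lactate genes tested, 7 rose and none fell (median 0.68; 7 and 0, median 0.81, without replicate 2). Hk1, hexokinase of neurons, had 76.5, 83.4 and 65.9 CPM against 135, 104 and 137 (log2 fold change 0.74 ± 0.14, adjusted p = 0.0048; 0.83 without replicate 2). Pgam1, phosphoglycerate mutase, had 139.8, 172 and 112 against 284, 191 and 268 (log2 fold change 0.81 ± 0.18, adjusted p = 0.007; 0.95 without replicate 2). Pdk2, a kinase that inhibits pyruvate dehydrogenase, had 51.7, 51.7 and 43.2 against 132, 74.7 and 95.8 (log2 fold change 1.05 ± 0.19, adjusted p = 0.0047; 1.20 without replicate 2). The groups did not overlap in these 3 genes.

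Pfkl, a phosphofructokinase of low level here, had 3.20, 3.74 and 3.97 against 7.83, 5.88 and 8.83 CPM (log2 fold change 1.04 ± 0.27, adjusted p = 0.014; 1.17 without replicate 2), a call lost without control 1. The other 3 that rose, outside the rule for named genes, were the phosphofructokinases Pfkm (0.65) and Pfkp (0.74) and the dehydrogenase Gapdh (0.71, adjusted p = 0.041; control 3 overlapped replicate 2). Once the GC and length trend was taken out, 4 of the 12 were called higher and none lower.

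Of 15 nuclear genes of oxidative phosphorylation, 6 rose and none fell (median 0.33; 7 and 1 without replicate 2; 5 and 1 with upper-quartile scaling). Uqcrc1, a core subunit of complex III, had 459, 480.0 and 464 CPM against 1213, 582 and 1060.4 (log2 fold change 1.03 ± 0.22, adjusted p = 0.0063; 1.26 without replicate 2). Cyc1, cytochrome c1 of the same complex, had 43.1, 37.8 and 45.6 against 113, 56 and 82.7 (log2 fold change 0.99 ± 0.22, adjusted p = 0.0068; 1.19 without replicate 2). Ndufa10 and Ndufs7, complex I subunits, had 91.1, 112 and 107 against 273, 118 and 239 CPM and 59.2, 70.1 and 80.8 against 198, 87 and 152 CPM (log2 fold changes 1.02 ± 0.23 and 1.06 ± 0.24, adjusted p = 0.0077 and 0.0083). Replicate 2 was in each case above all controls and below both other stimulated libraries. Ndufv1, another complex I subunit, outside the rule, rose as well (0.69). With the trend removed, 2 of the 15 were called.

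Of 5 transcripts of the mitochondrial genome tested, none rose and 2 fell (median -0.57; 1 without replicate 2). The number that fell was 4 with upper-quartile scaling or with no filter on low counts, 3 with DESeq2, 5 with voom and quality weights, and 1 once the trend on GC content and length was taken out. mt-Nd3, a complex I subunit, had 118, 86.1 and 96.3 CPM in controls and 57.9, 51.2 and 36 in the stimulated group (log2 fold change -1.05 ± 0.23, adjusted p = 0.0068; -1.12 without replicate 2). mt-Co2, a complex IV subunit, had 1273, 570.3 and 1224 against 736, 414 and 321 CPM (log2 fold change -1.06 ± 0.30, adjusted p = 0.022; -0.98 without replicate 2), with control 2 between the stimulated libraries; its call was lost without control 1 or 3 and without replicate 2 (adjusted p = 0.14). mt-Cytb, the most abundant, had 50769, 39398 and 51459 against 37367, 27973 and 32640.2 CPM and did not pass (adjusted p = 0.099). The ribosomal RNAs mt-Rnr1 and mt-Rnr2 stood at -0.50 and -0.57 and did not pass (adjusted p = 0.19 and 0.097). The groups did not overlap for mt-Nd3, mt-Cytb and mt-Rnr2.

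Among 26 axon guidance and growth genes, 4 rose and 3 fell (median -0.21; 4 and 7, median -0.65, without replicate 2). Those that fell were membrane and adhesion proteins. Gpm6a, a neuronal membrane glycoprotein of growth cones, had 178, 171 and 153 CPM in controls and 61.9, 105 and 68.1 in stimulated injured ganglia (log2 fold change -1.10 ± 0.19, adjusted p = 0.0046; -1.38 without replicate 2). Gpm6b, its relative, had 299, 315 and 284 against 129, 196 and 143 (log2 fold change -0.94 ± 0.17, adjusted p = 0.0046; -1.15 without replicate 2). Chl1, a close homologue of the adhesion molecule L1, had 48.2, 49.5 and 56.3 against 28.7, 29.9 and 29.3 (log2 fold change -0.81 ± 0.15, adjusted p = 0.0046; -0.84 without replicate 2), with the 3 stimulated libraries nearly equal. Its fold change was -0.20 once the GC and length trend was taken out.

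The 4 guidance genes that rose were Draxin, Sema6a, Sema4f and Sema7a. Draxin, a secreted repulsive guidance protein, went from 0.552, 1.13 and 0.934 CPM to 5.31, 3.42 and 2.47 (log2 fold change 2.08 ± 0.51, adjusted p = 0.011; 2.12 without replicate 2), a call lost without control 1 or stimulated replicate 1. Sema6a, a transmembrane semaphorin, had 4.75, 5.10 and 3.74 against 15.2, 6.62 and 12.1 (log2 fold change 1.31 ± 0.31, adjusted p = 0.0095; 1.57 without replicate 2), lost without control 3 or stimulated replicate 1. Sema4f and Sema7a, outside the rule, stood at 0.61 and 0.56 (adjusted p = 0.014 and 0.017). Cntn1, an axonal contactin that did not pass with all libraries (-0.96, adjusted p = 0.073) and is likewise outside the rule, had 74.1, 64.6 and 86.6 CPM in controls and 20.2, 66.2 and 29.1 in the stimulated group, with replicate 2 level with the controls; without replicate 2 it fell by 1.63.

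Of 5 satellite glia genes, none rose and 2 fell, with and without replicate 2. Cdh19, a glial cadherin, had 53.5, 56.8 and 54.2 CPM against 21.6, 42.6 and 25.4 (log2 fold change -0.87 ± 0.23, adjusted p = 0.017; -1.24 without replicate 2), and Ptprz1, a receptor phosphatase, had 353, 266 and 321 against 182, 255 and 221 (log2 fold change -0.51 ± 0.16, adjusted p = 0.036; -0.66 without replicate 2). Both calls were lost without control 1 or 3 or stimulated replicate 1. Once the GC and length trend was taken out, Ptprz1 stood at -0.05 and Cdh19 at -0.41, neither called. Kcnj10, the satellite glial potassium channel, had 91.7, 63 and 51.1 against 98.9, 86.7 and 94.7 CPM and did not pass (adjusted p = 0.33).

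Of 10 myelinating Schwann cell genes, 1 rose and none fell (3 and 1 without replicate 2). This was Fa2h, which makes hydroxylated myelin lipids and is also on the oligodendrocyte list, with 87.4, 95.7 and 77 CPM against 213, 116 and 141 (log2 fold change 0.85 ± 0.18, adjusted p = 0.0067; 1.01 without replicate 2). Mog and Cldn11, genes of oligodendrocytes, did not pass. Mog had 36.3, 25.2 and 24.2 CPM in controls and 16.3, 39.8 and 19.4 in the stimulated group, and Cldn11 116, 72.1 and 68.9 and 45.4, 116 and 54.8, highest in control 1 and in replicate 2.

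Of 26 fibroblast and matrix genes, 1 rose and 1 fell, and without replicate 2 the counts were 3 and 8. Dcn, the collagen-binding proteoglycan decorin, had 2650.3, 3545 and 2632 CPM in controls and 1847, 1717 and 1938 in the stimulated group (log2 fold change -0.68 ± 0.16, adjusted p = 0.0098; -0.65 without replicate 2). The groups did not overlap, the call was lost without control 2, and the fold change was -0.12 once the GC and length trend was taken out. Timp2, an inhibitor of matrix metalloproteinases, had 734, 910.3 and 702 against 1813, 1050.4 and 1659 CPM (log2 fold change 0.95 ± 0.19, adjusted p = 0.0051; 1.13 without replicate 2). Cav1 and Cav2, membrane proteins of caveolae, were among the most abundant genes that fell. Cav1 had 655, 707 and 608 against 442, 355 and 359.8 CPM (log2 fold change -0.77 ± 0.16, adjusted p = 0.0053; -0.73 without replicate 2), and Cav2 stood at -0.65 ± 0.14 (adjusted p = 0.0074). None of the 7 endothelial genes tested passed with or without replicate 2, and 6 of them had a fold change above 0 (median 0.58, and 0.61 without replicate 2).

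Of 11 antigen presentation genes, 2 rose and none fell, and without replicate 2 the counts were 6 and 0 (medians 0.37 and 0.51). Tap2, a subunit of the peptide transporter of class I presentation, had 20.4, 17 and 12.7 CPM against 53.4, 28.7 and 44.3 (log2 fold change 1.33 ± 0.23, adjusted p = 0.0046; 1.53 without replicate 2). H2-DMa, a class II chaperone, had 48.1, 55.6 and 43.9 against 90.8, 53.4 and 69.9 (log2 fold change 0.54 ± 0.18, adjusted p = 0.047; 0.69 without replicate 2), with replicate 2 inside the control range, and its call was lost in every fit that left out a library other than replicate 2 of the stimulated group. Of 8 macrophage genes, 1 passed (1 as well without replicate 2). Lyz2, lysozyme, fell from 49.7, 56.1 and 41.2 to 37, 34.4 and 32.1 CPM (log2 fold change -0.51 ± 0.16, adjusted p = 0.033; -0.52 without replicate 2), lost without control 1 or 2 or stimulated replicate 1. Ccr2, a monocyte chemokine receptor, fell from 17.7, 26.8 and 17.6 to 7.33, 11.6 and 8.95 CPM (log2 fold change -1.15 ± 0.28, adjusted p = 0.01; -1.36 without replicate 2), lost without control 2. Neither group overlapped the other for Lyz2 and Ccr2. The 2 red cell genes tested, Alas2 and Slc4a1, outside the rule, stood at 1.17 and 1.23 (adjusted p = 0.025 and 0.043), both uncalled with upper-quartile scaling, and Alas2 at 1.12 and not called without replicate 2 (adjusted p = 0.11).

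Lipid genes moved in both directions. Of 10 cholesterol and lipid synthesis genes, 3 rose and 1 fell (4 and 1 without replicate 2). Acaca, acetyl-CoA carboxylase, had 51.9, 66.2 and 48.2 CPM against 133, 75.5 and 92.7 (log2 fold change 0.85 ± 0.18, adjusted p = 0.0067; 1.01 without replicate 2). Elovl6, a fatty acid elongase, rose as well (0.65 ± 0.18), a call lost without control 1 or 3 or stimulated replicate 1. Scd2, a fatty acid desaturase, fell from 485, 516 and 407 to 168, 364 and 198 (log2 fold change -0.95 ± 0.30, adjusted p = 0.04; -1.38 without replicate 2), a call lost in 7 of the 12 fits that leave out a library. Of 8 lipid transport genes, 2 rose and 2 fell, and as many without replicate 2. Abca2, a lipid transporter of glia and neurons, had 149, 159.5 and 115 against 379, 227 and 288 CPM (log2 fold change 1.08 ± 0.20, adjusted p = 0.0046; 1.22 without replicate 2), and Cd36, a fatty acid receptor, fell from 11.3, 12 and 22.3 to 5.31, 4.59 and 4.59 (log2 fold change -1.65 ± 0.30, adjusted p = 0.0046; -1.64 without replicate 2). Pltp stood at 0.94 ± 0.25 and Abca1, a cholesterol exporter, at -0.60 ± 0.15, and Abca1 at -0.18 with the trend removed.

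Of 26 splicing genes, 3 rose and 1 fell, no more than the 11.5% and 5.99% of all tested named genes. Without replicate 2 the counts were 3 and 9, against 16.6% and 16.2% of all. Prpf19, a core spliceosome ubiquitin ligase, had 107, 121 and 110.2 CPM against 239.9, 146 and 219.7 (log2 fold change 0.84 ± 0.17, adjusted p = 0.0053; 1.01 without replicate 2). Sf3b4 and Snrpa, of the U2 and U1 particles, stood at 1.24 ± 0.26 and 0.96 ± 0.22. Srsf3 stood at -0.41 ± 0.12 and at 0.02 once the GC and length trend was taken out, so its direction depended on that step. Of 12 ubiquitin and proteasome genes, 3 rose and 1 fell (6 and 3 without replicate 2). Uchl1, also on the sensory neuron identity list, was among those that rose. Psmd3, a regulatory subunit of the proteasome, had 130.5, 169 and 126 against 404, 207 and 338 CPM (log2 fold change 1.16 ± 0.21, adjusted p = 0.0046; 1.37 without replicate 2), and Usp34, a deubiquitinase, fell from 30.5, 31.1 and 30.6 to 10.6, 19 and 12.7 (log2 fold change -1.12 ± 0.24, adjusted p = 0.0067; -1.41 without replicate 2). Of 4 clock genes tested, 1 fell (2 without replicate 2): Clock had 28.4, 20.4 and 24 against 8.09, 11.5 and 11.3 CPM (log2 fold change -1.23 ± 0.26, adjusted p = 0.0067; -1.34 without replicate 2). None of the 25 calcium handling genes passed, and without replicate 2 the counts were 1 higher and 4 lower.

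**Figure D4:**
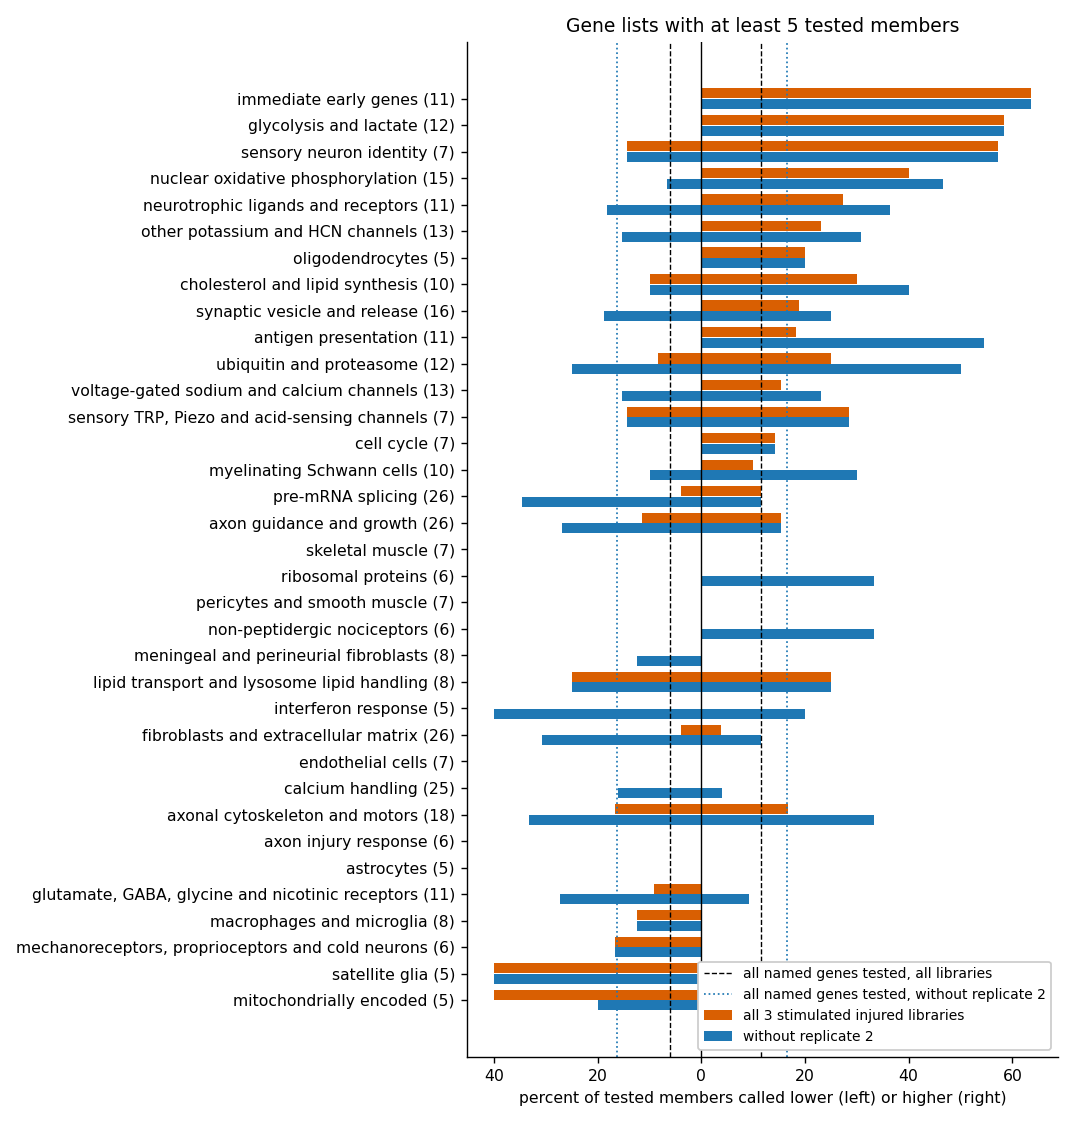
Share of the tested members of each list called higher (right) or lower (left), with all libraries (orange) and without replicate 2 (blue), for lists with at least 5 tested members (number in brackets); dashed lines are the 11.5% and 5.99% of all named genes with all libraries, and dotted blue lines the 16.6% and 16.2% without replicate 2. Immediate early, glycolysis, sensory neuron identity and oxidative phosphorylation genes have the longest bars to the right with all libraries.

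The largest fold changes among genes with groups that did not overlap included Fos, Ier2, Nr4a1, Junb and Draxin above. Itga2b, an integrin of platelets and megakaryocytes, had the highest, 2.77 ± 0.91, from 0.442, 0.227 and 0.233 CPM to 4.04, 1.71 and 0.706, and 9 of the 12 fits that leave out a library did not call it. Kcng1, a silent potassium channel subunit, had 0.773, 0.794 and 0 against 2.65, 1.71 and 3.89 CPM (log2 fold change 2.35 ± 0.67, adjusted p = 0.024; 2.59 without replicate 2), lost without control 1 or 3. Camk2n2, an inhibitor of calcium/calmodulin kinase II, was more abundant, with 110.0, 124 and 107 against 423, 165 and 322 CPM (log2 fold change 1.41 ± 0.26, adjusted p = 0.0046; 1.69 without replicate 2). Cacng8, an AMPA receptor regulator, had 2.54, 2.95 and 2.10 against 8.46, 7.91 and 7.65 CPM (log2 fold change 1.66 ± 0.41, adjusted p = 0.012; 1.65 without replicate 2). Cenpm stood at 1.77 ± 0.38, Pbx4 at 1.58 ± 0.39 and Rncr4, a noncoding RNA, at 1.75 ± 0.55.

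On the lower side, the genes of largest fold were of low level. Gabrr1, Sla and Fgd4 had at most 3.65 CPM in any control and stood at -3.31 ± 1.07, -3.18 ± 1.03 and -2.89 ± 0.91, and each call was lost without control 1 or 3 or stimulated replicate 1. Cpd, carboxypeptidase D of the secretory pathway, had 25.9, 26.4 and 20.0 CPM against 2.40, 9.51 and 7.06 (log2 fold change -1.91 ± 0.43, adjusted p = 0.0074; -2.35 without replicate 2). Plag1, a zinc finger transcription factor, had 13.7, 11.7 and 12.7 against 1.26, 6.94 and 1.77 (log2 fold change -1.91 ± 0.45, adjusted p = 0.0095; -3.07 without replicate 2), with replicate 2 between the groups. Slc2a12, a glucose transporter, had 2.54, 2.38 and 3.39 against 0.253, 0.961 and 0.353 (log2 fold change -2.35 ± 0.55, adjusted p = 0.0094; -3.15 without replicate 2). Slc2a4, the insulin-regulated glucose transporter, had 4.20, 2.27 and 10.6 against 1.26, 2.24 and 1.30 (log2 fold change -1.81 ± 0.52, adjusted p = 0.024; -2.17 without replicate 2), highest in control 3, the library with most muscle marker RNA, and its call was lost without that control or stimulated replicate 1.

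Rhobtb3 and Akap11, an anchor of protein kinase A, stood at -1.73 ± 0.41 and -1.71 ± 0.33, and were lost only without stimulated replicate 3. Slc4a10, Rnf152, Slc39a12, Nktr, Lnpep and Ggcx completed the 15, between -2.34 and -1.66. Zfp292, a zinc finger protein, was the 1 lower gene called in all 12 such fits, with 130.5, 130.0 and 139 CPM in controls and 61.8, 79.4 and 69.9 in the stimulated group (log2 fold change -0.92 ± 0.14, adjusted p = 0.0046; -1.03 without replicate 2).

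The most abundant genes that rose were Ckb, Uchl1, Ywhaz, Spock2, Lynx1, Klc1, Thy1 and Kcnab2. Ckb, brain creatine kinase, had 1877, 1785 and 1865 CPM against 5808, 2509 and 4528 (log2 fold change 1.22 ± 0.26, adjusted p = 0.0067; 1.47 without replicate 2). Spock2, a matrix proteoglycan made by neurons, had 1070.1, 1221 and 1166 against 3404, 1630.3 and 2881 (log2 fold change 1.20 ± 0.22, adjusted p = 0.0046; 1.43 without replicate 2). Lynx1, a modulator of nicotinic receptors, had 1047, 1043 and 1050.2 against 2046, 1423 and 2221 (log2 fold change 0.86 ± 0.18, adjusted p = 0.0056; 1.01 without replicate 2). Ywhaz, a 14-3-3 protein, stood at 0.49 ± 0.16, and 11 of those 12 fits did not call it.

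The most abundant that fell were Dcn, Cd24a, Cpne3, Ecpas, Serinc1, Cav2, Tmem106b and Cav1. Serinc1, a membrane protein linked to serine-containing lipids, had 640.0, 643 and 730.1 CPM against 346, 480.0 and 425 (log2 fold change -0.69 ± 0.15, adjusted p = 0.0072; -0.82 without replicate 2). Tmem106b, a lysosomal membrane protein, had 633, 668 and 632 against 376, 499 and 395 (log2 fold change -0.61 ± 0.14, adjusted p = 0.0095; -0.76 without replicate 2). After removal of that trend on GC and length, Tmem106b stood at -0.02, Cpne3 at 0.01 and Ecpas at 0.03, against -0.61, -0.57 and -0.44 before, the last 2 with a changed sign.

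The genes in which replicate 2 differed most from replicates 1 and 3 describe that library. It was lowest against them, among genes of at least 10 CPM, in Hs3st2, Pop7, Sult4a1, Dgcr6 and Babam2. Sult4a1, a brain sulfotransferase, had 203, 218 and 232 CPM in controls and 658, 244 and 528 in stimulated injured replicates 1 to 3, so that replicate 2 was near the controls. Hs3st2, a heparan sulfate sulfotransferase, had 20.1, 21 and 22.4 and 56.7, 21.9 and 58.3. It was highest in Atp2a1, Mmp13, Ckm, Plekhb1 and Ildr2. Atp2a1 and Ckm, muscle genes, had 0, 40.6 and 1.18 and 0.505, 18.4 and 0.942 CPM in the stimulated libraries, and 32.9, 2.83 and 413 and 22.4, 1.36 and 176 in controls, with control 3 the highest of all. Mmp13, collagenase 3, had 0.253, 19.6 and 1.18 against 28.2, 2.95 and 23.8 in controls, where control 2 was low as well. Plekhb1 and Ildr2 had 16.6, 73.7 and 27.3 and 3.79, 15.9 and 4.83 CPM, with replicate 2 inside the control ranges.

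Base composition moved with the fold change in all 3 stimulated injured libraries. Median transcript GC content was 49.3% over the tested genes, 55.5% over those called higher and 42.6% over those called lower. Median gene span was 33.0, 19.8 and 52.9 kb. Across 4769 genes, which are not independent, the log2 fold change had a Spearman rho of 0.47 with GC content and -0.30 with transcript length (0.41 and -0.34 without replicate 2). By library, rho of the difference from the control mean with GC content was 0.40, 0.48 and 0.43 in stimulated injured replicates 1 to 3, and 0.03, 0.19 and -0.21 in the controls. With gene span it was -0.30, -0.09 and -0.26 in the stimulated injured replicates, nearest 0 in replicate 2. Among 477 genes of lowest GC content the medians were -0.56, -0.27 and -0.41, and among 477 of highest GC content 0.43, 0.32 and 0.40. Replicate 2, near the controls by overall correlation, rose with GC content as the other 2 did.

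With the trend on GC content and length removed, 264 of the 551 higher calls (47.9%) and 57 of the 286 lower calls (19.9%) were called in the same direction, and 4 and 16 changed sign. The 7 immediate early genes were among those called, with a list median of 1.09, and so were Asic1, Thy1, Cntfr, Spock2, Timp2, Gpm6a and Gpm6b. Kcnn4 was called too (1.19, adjusted p = 0.033). This fit used named genes only, with p adjusted over 4769 of them. What part of the GC trend belongs to the tissue and what part to the libraries was not tested.

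**Figure D5:**
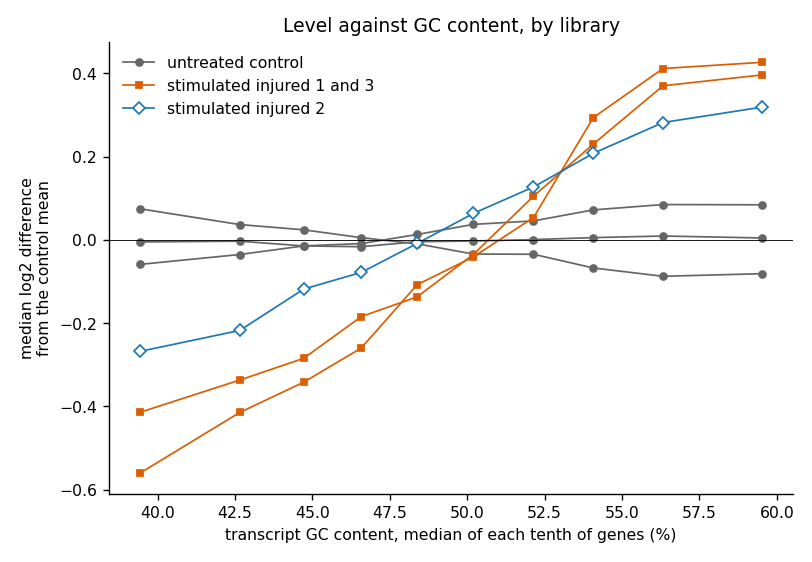
Median log2 difference of each library from the control mean (log2 of CPM plus 1), over 10 bins of the named genes ordered by transcript GC content. The 3 stimulated injured libraries rise from -0.56 to -0.27 in the lowest bin to 0.32 to 0.43 in the highest, and the controls stay within -0.09 and 0.08.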

How the data were processed

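The authors deposited raw read counts per annotated interval, made with featureCounts 2.0.6 on Ensembl annotation 110 without strand, counting single reads and allowing overlaps, per the file headers. The submitters' processing notes also name FastQC, Salmon 1.10.2 and DESeq2; the aligner's version is not given in the sources used here, and neither is the genome build. The counts lay where GRCm38 exons fall in the GRCm39 intervals, so a gene was named only where an interval covered at least 100 bp of exons of exactly 1 GENCODE M21 gene. A partly covered gene is measured through that stretch only, and overlapping or antisense genes cannot be told apart.

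Counts of all 12 libraries were fitted as 4 groups with edgeR 4.0.16 (TMM factors, filterByExpr, robust quasi-likelihood) in R 4.3.3, with Benjamini-Hochberg adjustment. The alternatives were limma 3.58.1 voom with quality weights, DESeq2 1.42.0, other scalings and filters, a trend on GC content and length removed, and leaving out each library. Common biological variation was 0.235. On simulated counts, the fit found 46 of 100 intervals changed by 1 on the log2 scale and 74 of 100 changed by 2, with 7 false calls among 12603 intervals. These counts were drawn independently from the fitted means and dispersions, with no library that stands apart and no GC trend. The number of false calls therefore does not carry over to the real libraries, which have both.

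The genes named are Kcnn genes; the 15 highest and 15 lowest fold changes and the 8 most abundant called genes per direction, of at least 1 CPM and with no overlap between groups; up to 4 genes of smallest p per list of at least 3 tested members; and 5 genes per direction for replicate 2, of at least 10 CPM. The members and lists were chosen with earlier results of these data known. Replicate numbers were not taken to pair samples, because deviations of same-numbered libraries correlated at -0.022, -0.086 and -0.018. Numbers follow the titles, and the file headers number the control libraries otherwise; over all 9 pairings of a control with a stimulated injured library the correlations ran from -0.086 to 0.052. No 2 libraries were duplicates. Some members of the lists are not reported here.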

Additional observations from a re-analysis of the deposited data

How the results depend on the processing

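Leaving out 1 library gave 8 to 2366 higher and 3 to 1983 lower intervals, 5 to 822 higher and 1 to 804 lower named genes, and a Kcnn4 log2 fold change of 0.92 to 1.48. Fitting only the 6 libraries gave 717 higher and 408 lower intervals (257 and 178 named genes), and the same without replicate 2, chosen after seeing the data, 2540 and 2152 (902 and 863). Upper-quartile scaling gave 1016 lower intervals (467 named genes), DESeq2 968 (439), and voom with quality weights 2842 higher and 2512 lower (1008 and 1018), which put the share of calls that were higher at 53.1%. With the GC and length trend removed there were 363 higher and 76 lower named genes, and with at least 50% of the interval in exons 150 and 99. The replicate block gave 1301 higher and 499 lower intervals and called 450 of the 551 higher and 211 of the 286 lower named genes; the numbers are not shown to pair the samples. With that GC trend removed, the log2 fold change was 0.0060 for Cpne3, 0.031 for Ecpas, -0.18 for Hcn2, 0.030 for Klf10 and 0.022 for Srsf3, and voom with quality weights gave Klf10 0.040, each of opposite sign to the value reported. Over the fits that leave out 1 library, Cldn11 ran from -0.80 (without stimulated replicate 2) to 0.035 (without control 1), with 0.0012 without stimulated replicate 1, and Mog from -0.70 to 0.061 in the same order of replicates 2 and 1, with 0.036 without control 1. The cause of these shifts was not tested. At 8396501 to 8930766 counts and 3 libraries a group, the log2 fold change of Kcnn3 had a standard error of 0.92, and a p that missed the threshold does not show equal levels.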
